A study of Mus musculus with 4 samples.

Results

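The genes described here encode the enzymes that remove peroxides and other oxidants from cells, the enzymes that make and use glutathione, and the regulator pair Nfe2l2 and Keap1. They were chosen by gene symbol alone: the numbered Gpx and Prdx genes, the numbered Gst genes of the alpha, mu, pi, theta, kappa and omega classes, and 18 single genes such as Hmox1, Gss, Sod1 and Cat. The choice gave 53 genes of the 41543 in the count tables, and 48 of the 53 were expressed highly enough to be tested. The series profiled messenger RNA of E14TG2a, a line of mouse embryonic stem (ES) cells kept on gelatin in medium with serum, the cytokine LIF and beta-mercaptoethanol, a thiol reducing agent that all 4 libraries share. The control group, labelled only as Control, had 2 libraries, and so had the group whose KAT6A, a histone acetyltransferase of the MYST family, was knocked out by CRISPR/Cas9 editing. Separate cultures or clones are not mentioned in the labels, and neither is the position of the edit. A p-value here thus measures the spread between these 4 samples alone, which may be technical.

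Cells keep oxidants in check with linked systems. Glutathione, a tripeptide made by glutamate-cysteine ligase and glutathione synthetase, feeds glutathione peroxidases and transferases and is restored by glutathione reductase. Most peroxiredoxins use thioredoxin in the same way. The transcription factor NRF2 (Nfe2l2) switches on many of these genes through antioxidant response elements when its partner KEAP1 stops directing it to degradation.

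Total counts were 35616899 and 37354623 in the controls and 30185640 and 27494041 in the libraries labelled KO 1 and KO 2. Kat6a RNA stood at 145 and 143 CPM (counts scaled to the library's size) in the controls, at 242 CPM in the library labelled KO 1 and at 86.4 CPM in that labelled KO 2. It therefore lay above the controls in one knockout library and below them in the other, so the counts do not check the labels, on which each direction given below rests. Pou5f1, Sox2 and Nanog, which define pluripotent cells, had at least 415 CPM in every library. The 10 markers of pluripotent cells summed to 4789 and 4856 CPM in the controls and to 5821 and 6464 CPM in the libraries labelled KO 1 and KO 2, and 2 of them, Esrrb (0.56, edgeR adjusted p = 0.013) and Dppa5a (0.61, edgeR adjusted p = 0.019), were called higher. The 10 markers of primitive endoderm summed to 2995 and 2857 CPM in the controls against 732 CPM in the library labelled KO 1 and 1509 CPM in that labelled KO 2, and 7 of the 10 were called lower. In bulk RNA, fewer cells of a type and less RNA per cell cannot be told apart. Markers of fibroblasts, erythroid cells and hepatocytes summed to at most 22.6, 2.53 and 1.24 CPM in any library, with Lum, Hbb-bs, Hbb-bt and Serpina1a at 0. Markers of 2-cell-like cells summed to 6.22 and 6.10 CPM in the controls against 21.1 and 18.4 CPM in the libraries labelled KO 1 and KO 2, and 6 of 7 tested were higher.

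The promoters of called members are shown because the series concerns an enzyme recruited to unmethylated CpG islands. Of the 53 genes, 46 had a promoter window in the RefSeq table (GRCm38.p6), 300 bases long, from 250 bases before the start to 50 after it, on the gene's own strand, and some had more than 1. The 4 printed are Gpx3 and Gss, which fell, and Gstt1 and Gpx7, which rose, with each CG pair in capitals. Gpx3 lies at chr11:54902604-54902903 on the plus strand, Gss at chr2:155592761-155593060, Gstt1 at chr10:75797682-75797981 and Gpx7 at chr4:108406664-108406963, the last 3 on the minus strand.
Gpx3: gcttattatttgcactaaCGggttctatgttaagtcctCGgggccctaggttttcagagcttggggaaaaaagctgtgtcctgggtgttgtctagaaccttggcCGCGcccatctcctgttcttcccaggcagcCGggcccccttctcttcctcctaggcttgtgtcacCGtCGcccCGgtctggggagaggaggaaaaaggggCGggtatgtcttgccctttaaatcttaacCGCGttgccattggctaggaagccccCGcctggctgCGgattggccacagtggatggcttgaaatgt
Gss: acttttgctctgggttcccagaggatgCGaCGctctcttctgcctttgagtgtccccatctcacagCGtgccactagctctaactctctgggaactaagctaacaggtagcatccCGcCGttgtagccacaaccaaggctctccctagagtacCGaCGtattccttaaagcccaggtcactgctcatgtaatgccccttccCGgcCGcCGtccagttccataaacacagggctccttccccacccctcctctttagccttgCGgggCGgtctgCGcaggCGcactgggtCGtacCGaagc
Gstt1: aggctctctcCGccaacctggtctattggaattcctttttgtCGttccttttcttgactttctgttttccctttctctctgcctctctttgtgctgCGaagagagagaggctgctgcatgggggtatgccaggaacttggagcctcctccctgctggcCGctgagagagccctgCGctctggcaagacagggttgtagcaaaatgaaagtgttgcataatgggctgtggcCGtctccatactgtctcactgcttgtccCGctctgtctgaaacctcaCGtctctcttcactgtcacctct
Gpx7: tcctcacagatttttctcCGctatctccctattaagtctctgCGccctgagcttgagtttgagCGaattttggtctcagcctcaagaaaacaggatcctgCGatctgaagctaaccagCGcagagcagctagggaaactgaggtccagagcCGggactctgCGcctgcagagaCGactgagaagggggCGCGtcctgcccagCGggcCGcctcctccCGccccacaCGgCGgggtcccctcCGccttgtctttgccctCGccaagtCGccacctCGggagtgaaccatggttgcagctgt
The windows of Gpx3, Gss, Gstt1 and Gpx7 held 13, 16, 8 and 19 CG pairs, where the median of all windows was 7. Those with at least 10 were thus of Gpx3 and Gss, which fell, and of Gpx7, which rose. Gpx4 has 4 windows, for different starts, with 3, 26, 29 and 31 CG pairs, and none is printed because the counts do not tell these starts apart. At least 10 CG pairs stood in 36 of the 58 member windows (62.1%) and in 43.5% of all 32851 windows, and at least 1 stood in 57 of the 58 and in 94.6% of all. The core of the antioxidant response element, searched as TGACNNNGC on both strands, was found in 9 of the 58 windows (15.5%), against 12.4% of all windows. These letters can include the AP-1 motif TGACTCA. The 9 windows belonged to Gclm, Gsta3, Gstm5, Gstm7, Nfe2l2, Prdx1, Sod1, Srxn1 and Txnrd1. These letters were in none of the windows of the 5 called members matched. The called members Hmox1 and Gstt2 had no window and were not searched. A window of 300 bases cannot show that a gene lacks the element farther away.

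The libraries labelled KAT6A knockout and those labelled control were compared to see how the levels of these genes differ between them. Most members did not pass the test: the haem enzyme gene Hmox1, the secreted peroxidase gene Gpx3 and the glutathione synthetase gene Gss fell, while the peroxidase genes Gpx4 and Gpx7 and the transferase genes Gstt1 and Gstt2 rose. With the quasi-likelihood test of edgeR and a Benjamini-Hochberg adjusted p under 0.05 over all tested genes, 4 of the 48 tested members were higher, against 5.76% of all genes tested, and 3 were lower, against 8.57%. The 7 together are 14.6% of the tested members, near the 14.3% of all 16112 tested genes that were called. The median log2 fold change, knockout over control, was 0.04 for the members and 0.0055 for all tested genes. It was below 0.25 in size for 30 of the 48 members (62.5%), against 46.6% of all tested genes. Summed over all 53 genes the level was 4743 and 4640 CPM in the controls and 4641 and 4663 CPM in the libraries labelled KO 1 and KO 2, so the groups overlapped.

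**Figure D1:**
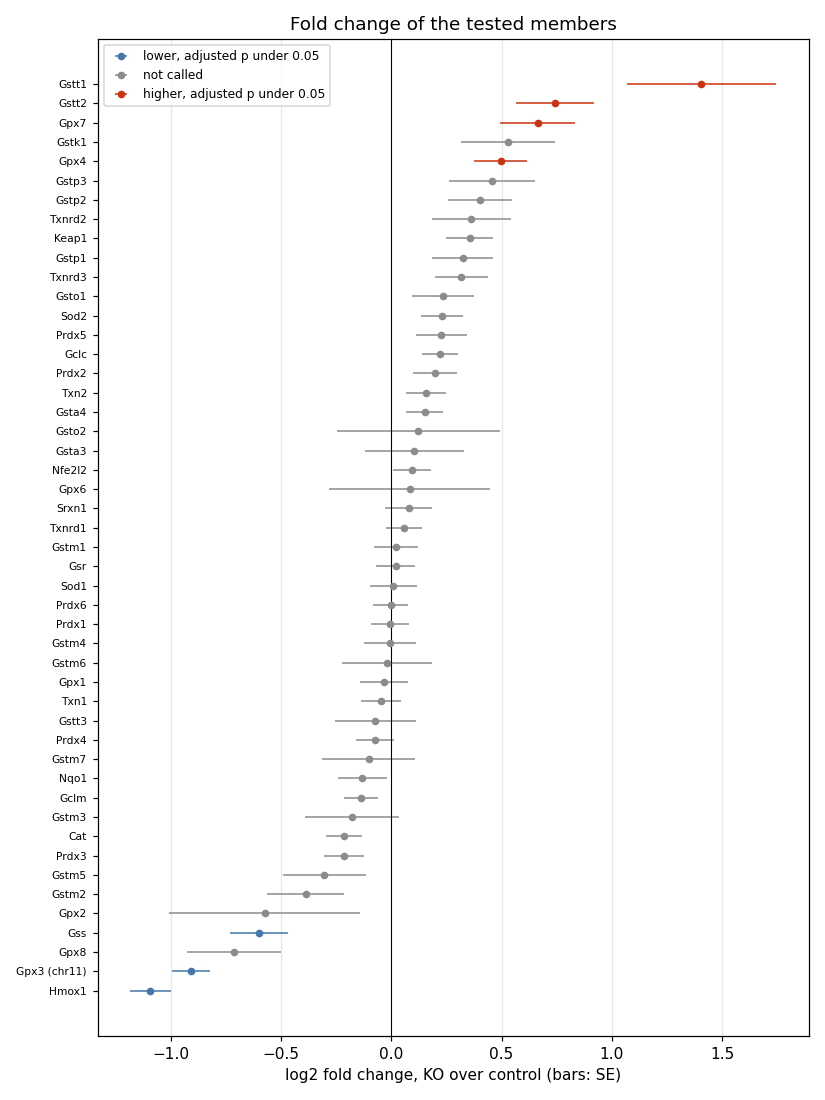
Log2 fold change, knockout over control, of each of the 48 tested members (x axis), sorted by value, with bars for the standard error. Blue points are the 3 genes called lower, red points the 4 called higher and grey points the others, most of which lie within 0.25 of 0.

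Both knockout libraries lay above both controls for 20 of the 48 members, against 31.5% of all tested genes, and below both for 11, against 32.8%. The groups overlapped for the other 17. In each comparison with all tested genes, those include 1322 of chromosome 11, with a median log2 fold change of -0.46. Of the 48 members, 47 lie on other chromosomes. In the fit without chromosome 11, 0% of these 47 were higher, against 3.51% of 14790 genes. In the same fit 4.26% of them were lower, against 4.71%. What chromosome 11 adds to the other differences in share was not tested. Calls were sensitive to single libraries, since each group has 2. Without control replicate 1 or without control replicate 2, 1 member was higher and 2 were lower, while 1.55% and 1.69% of all genes tested were higher and 4.09% and 3.94% lower. Without the library labelled KO 1, 16 members (33.3%) were higher and 9 (18.8%) lower, against 23.9% and 26.2% of all genes. Without that labelled KO 2, 15 (31.2%) were higher and 11 (22.9%) lower, against 20.9% and 22.9% of all genes, the spread in both cases coming from the control pair alone.

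Neither regulator passed the quasi-likelihood test. Nfe2l2, the more abundant of the pair, had 104 and 102 CPM in the controls and 115 and 105 CPM in the libraries labelled KO 1 and KO 2. All 4 values lay close together, with a log2 fold change of 0.09 (SE 0.09, edgeR adjusted p = 0.48). Keap1, which encodes the adaptor that marks NRF2 for degradation, had 28.8 and 27.3 CPM in the controls and 34.2 and 37.5 CPM in the knockout libraries. Both knockout values were above both controls, with a log2 fold change of 0.36 (SE 0.11, edgeR adjusted p = 0.071). With the likelihood ratio test of edgeR, Keap1 passed (adjusted p = 0.049).

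Hmox1, which encodes the inducible haem oxygenase that breaks haem down to biliverdin, iron and carbon monoxide, had the largest fall among the members. It stands on chromosome 8 at 75093621 to 75100589 (GRCm38, GENCODE M21, protein-coding). It had 272 and 242 CPM in the controls and 123 and 118 CPM in the libraries labelled KO 1 and KO 2. The groups were far apart and the knockout libraries nearly alike. The level was 2.13-fold lower, a log2 fold change of -1.09 (SE 0.09, edgeR adjusted p = 0.0056). The primitive endoderm markers were also lower, with sums of 732 CPM in the library labelled KO 1 and 1509 CPM in that labelled KO 2. Their part in the fall of Hmox1 was not tested. Hmox1 was called lower under each of the 16 alternatives, with log2 fold changes of -1.17 to -1.01. Nqo1, the quinone reductase gene that is a standard NRF2 target, had 24.3 and 25.3 CPM in the controls and 21.8 and 23.5 CPM in the knockout libraries. The knockout values were just below the controls, and the log2 fold change of -0.13 did not pass (edgeR adjusted p = 0.44).

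Of the glutathione synthesis and reduction genes, 1 of 4 was called, against 14.3% of all tested genes. Gss encodes glutathione synthetase, which adds glycine in the last step of synthesis, and lies on chromosome 2 at 155563181 to 155592810. It had 53.0 and 51.5 CPM in the controls and 30.4 and 38.5 CPM in the libraries labelled KO 1 and KO 2. Both knockout values were below both controls, and the lower was that labelled KO 1. Gss was 1.52-fold lower, a log2 fold change of -0.60 (SE 0.13, edgeR adjusted p = 0.033). Leaving out control replicate 1 ended the call (edgeR adjusted p = 0.12), as did leaving out control replicate 2 (edgeR adjusted p = 0.087). Gss overlaps Acss2 and 2 antisense genes on the opposite strand. Acss2 had 17.9 to 22.2 CPM and each antisense gene at most 0.23 CPM in every library, and the sources used here do not give the strand setting of the counting. Gpx2, Prdx2, Sod1, Txnrd2, Gsto1 and Gsto2 also share positions with an opposite-strand gene of at least 5.5 CPM in every library. Opposite-strand genes at Keap1, Gpx8, Gstm5 and Prdx5 were lower, reaching 1.71, 1.13, 1.91 and 2.00 CPM. That at Gpx8, Cdc20b, had 1.13 and 0.78 CPM in the controls. It had 0.49 and 0.36 CPM in the libraries labelled KO 1 and KO 2.

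The other genes of this group encode the ligase subunits Gclc (catalytic) and Gclm (modifier), which carry out the first and rate-limiting step, and the reductase Gsr. Gclm, the most abundant by mean CPM over all 4 libraries, had 137 and 138 CPM in the controls and 124 and 126 CPM in the libraries labelled KO 1 and KO 2. The knockout libraries were slightly lower, and the log2 fold change of -0.14 did not pass (edgeR adjusted p = 0.27). With the GC-content offset, a correction for the base composition of transcripts, it was 0.07. Gclc had 115 and 114 CPM in the controls and 137 and 130 CPM in the knockout libraries. By CPM it was below Gclm in both controls and above it in both knockout libraries. Per kb of exon Gclc was above Gclm in every library. The controls had 30.5 and 30.4 against 21.8 and 21.9 CPM per kb, and the knockout libraries 36.4 and 34.5 against 19.6 and 20.1. The log2 fold change of Gclc, 0.22, did not pass (edgeR adjusted p = 0.11). With the GC-content offset it was 0.27 and passed (edgeR adjusted p = 0.049). Gsr, at 0.02, did not pass. Per kb of exon in GENCODE M21, mean levels over the libraries were 38.8 CPM per kb for Gsr, 32.9 for Gclc, 20.8 for Gclm and 7.33 for Gss.

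**Figure D2:**
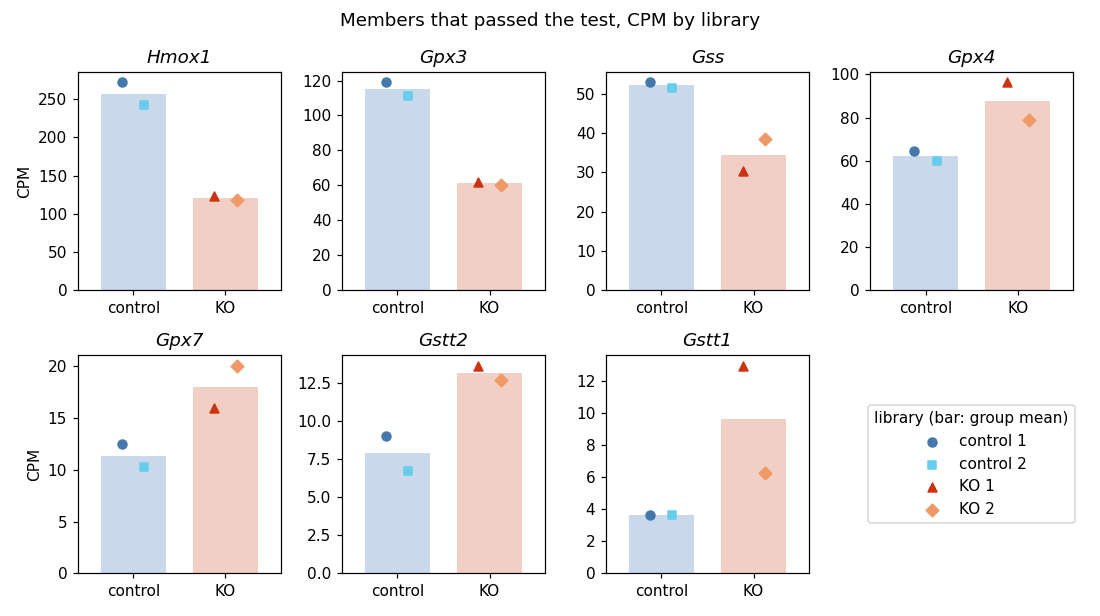
CPM (y axis, from 0, with its own scale in each panel) of the 7 called members in each library, with bars for the group mean. Hmox1, Gpx3 and Gss are lower in both knockout libraries, and Gstt1 stands at 13.0 CPM in the library labelled KO 1 and 6.26 CPM in that labelled KO 2.

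Of 7 tested glutathione peroxidases, 2 were called higher and 1 lower, against 5.76% and 8.57% of all tested genes. Gpx3 encodes the secreted plasma peroxidase, a selenoprotein, and lies on chromosome 11 at 54902453 to 54910377. It had 119 and 111 CPM in the controls and 62.1 and 60.3 CPM in the libraries labelled KO 1 and KO 2. The knockout libraries were alike and well below the controls. Gpx3 was 1.88-fold lower, a log2 fold change of -0.91 (SE 0.09, edgeR adjusted p = 0.0064). The 1322 tested genes of chromosome 11 had a median log2 fold change of -0.46, smaller in size than the fall of Gpx3, and the part of that shared shift in its value was not tested. Gpx3 was called lower under each of the 15 alternatives that could be run for it, from -1.05 to -0.86.

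Gpx4 encodes the phospholipid hydroperoxide peroxidase that protects membranes from lipid peroxidation and ferroptosis, and lies on chromosome 10 at 80047166 to 80056439. It had 64.6 and 59.7 CPM in the controls and 96.4 and 78.9 CPM in the libraries labelled KO 1 and KO 2. Both knockout libraries were above the controls, with a log2 fold change of 0.50 (SE 0.12, edgeR adjusted p = 0.042). Transcripts of Gpx4 are rich in GC (60.2%), and after the GC-content offset the log2 fold change was 0.26 and the call ended (edgeR adjusted p = 0.28). It also ended without control replicate 1 (edgeR adjusted p = 0.11), without control replicate 2 (edgeR adjusted p = 0.23) and without the genes of chromosome 11 (edgeR adjusted p = 0.067).

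Gpx7 encodes a peroxidase of the endoplasmic reticulum and lies on chromosome 4 at 108400390 to 108406961. It had 12.4 and 10.2 CPM in the controls and 15.9 and 20.0 CPM in the libraries labelled KO 1 and KO 2. The highest value was that of the library labelled KO 2. The log2 fold change was 0.66 (SE 0.17, edgeR adjusted p = 0.0496), at the edge of the threshold. Without control replicate 1 or 2 the call ended (edgeR adjusted p = 0.087 and 0.33), and also with the offset for GC content (edgeR adjusted p = 0.066), with a minimum of 1 CPM (edgeR adjusted p = 0.052) and without the genes of chromosome 11 (edgeR adjusted p = 0.071).

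Gpx1, the cytosolic enzyme and the most abundant peroxidase, had 211 and 201 CPM in the controls and 183 and 221 CPM in the libraries labelled KO 1 and KO 2. The knockout values straddled the controls, with a log2 fold change of -0.03 (edgeR adjusted p = 0.86) whose sign depended on the scaling, being 0.00096 with upper-quartile factors. Gpx8, the other peroxidase of the endoplasmic reticulum, had 3.97 and 4.32 CPM in the controls and 2.86 and 2.18 CPM in the knockout libraries. It had a log2 fold change of -0.71 ± 0.21 (SE) and did not pass (edgeR adjusted p = 0.071), opposite in sign to that of Gpx7. Gpx8 did pass when genes with low counts were kept (edgeR adjusted p = 0.042) and with the likelihood ratio test of edgeR (adjusted p = 0.018).

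Gpx2, the gastrointestinal enzyme, had 12.9 and 12.9 CPM in the controls against 4.40 CPM in the library labelled KO 1 and 13.0 CPM in that labelled KO 2. One knockout library alone was low, and the log2 fold change of -0.57 ± 0.43 (SE) did not pass (edgeR adjusted p = 0.39). Without the library labelled KO 1 it was 0.01, and without that labelled KO 2 it was -1.55. Gpx6 also moved apart in the knockout libraries, at 4.8 CPM in that labelled KO 1 and 2.18 CPM in that labelled KO 2, against 3.66 and 2.97 CPM in the controls. Per kb of exon, mean levels were 142 CPM per kb for Gpx1, 48.6 for Gpx3, 43.4 for Gpx4, 11.4 for Gpx7, 3.35 for Gpx2, 3.18 for Gpx8 and 2.49 for Gpx6. The order of Gpx3 and Gpx4 turned with the group: Gpx3 was above Gpx4 in both controls (65.6 and 61.2 against 37.5 and 34.6 CPM per kb) and below it in the libraries labelled KO 1 and KO 2 (34.3 and 33.3 against 55.9 and 45.7).

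**Figure D3:**
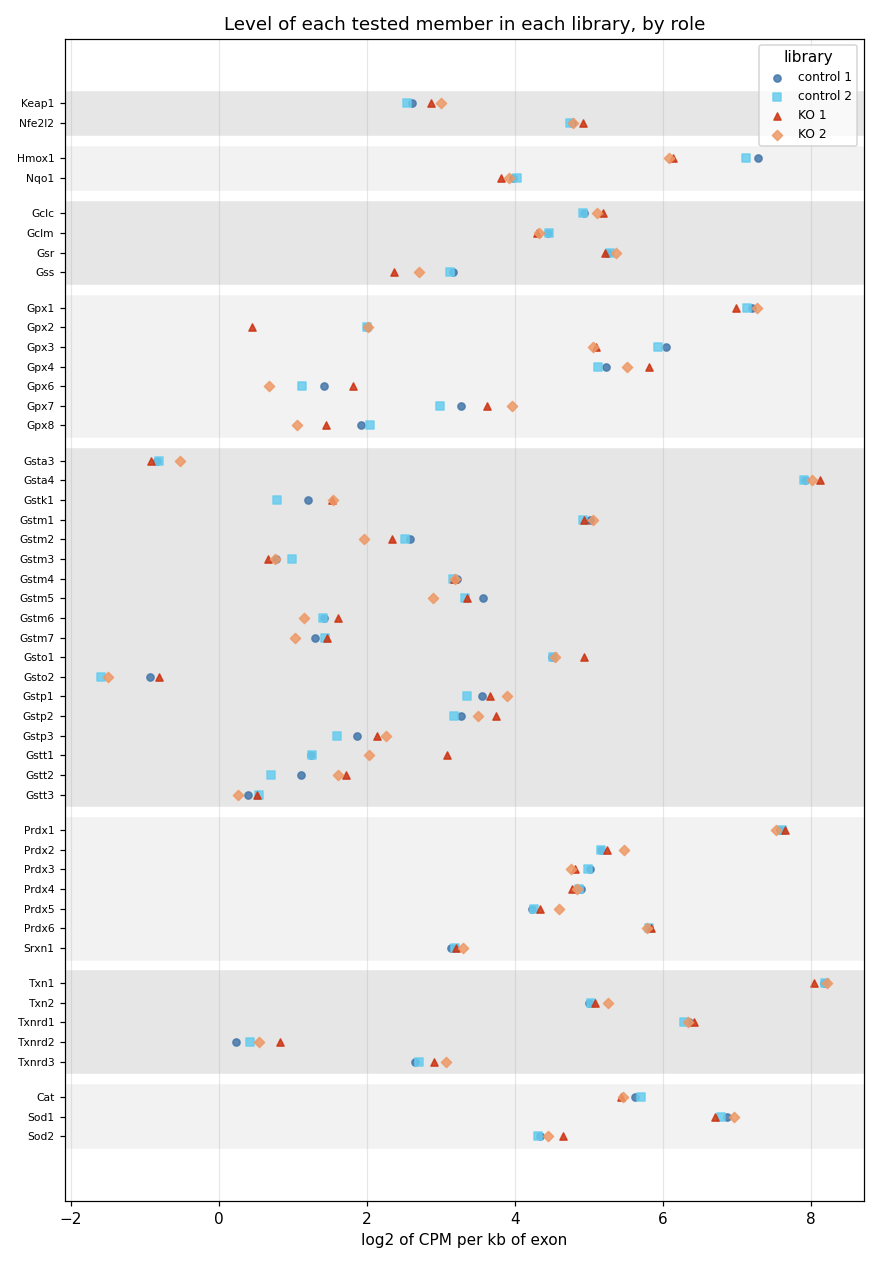
Level of each tested member in each library, as log2 of CPM per kb of exon (x axis), with the genes grouped by role on shaded bands and 1 symbol per library. Many genes have symbols that lie close together. Those with symbols that stand apart include Gstt1, Gpx2, Hmox1, Gpx6, Gstt2, Gpx8, Gpx3, Gpx7 and Gss.

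Glutathione transferases join glutathione to electrophiles, and most lie in clusters of related genes. Of 18 tested, 2 were called higher, both of the theta class, and none was called lower. Of all tested genes, 5.76% were called higher and 8.57% lower. The theta cluster covers chromosome 10 from 75774115 to 75837424. Gstt1 had 3.63 and 3.64 CPM in the controls against 13.0 CPM in the library labelled KO 1 and 6.26 CPM in that labelled KO 2. Both knockout libraries were above the controls, but by unequal amounts. The log2 fold change was 1.41 (SE 0.34, edgeR adjusted p = 0.043). Without the library labelled KO 1 it was 0.78, and without that labelled KO 2 it was 1.83. The call ended with the offset for GC content (edgeR adjusted p = 0.064), with limma-voom (adjusted p = 0.053), with a minimum of 1 CPM (edgeR adjusted p = 0.0505) and without the genes of chromosome 11 (edgeR adjusted p = 0.062).

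Gstt2 had 9.0 and 6.75 CPM in the controls and 13.6 and 12.7 CPM in the libraries labelled KO 1 and KO 2. The knockout libraries were alike and above both controls, which differed from each other. The log2 fold change was 0.74 (SE 0.18, edgeR adjusted p = 0.042), and the call ended without control replicate 1 (edgeR adjusted p = 0.051), without control replicate 2 (edgeR adjusted p = 0.36) and without the genes of chromosome 11 (edgeR adjusted p = 0.062). Gstt3, in the same cluster, had a log2 fold change of -0.07 and did not pass (edgeR adjusted p = 0.81). Gstt4, also there, was not tested, with 2 to 5 counts in each library.

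The other classes did not pass the test. The mu cluster on chromosome 3, from 107895821 to 108044894, had 7 tested genes with log2 fold changes of -0.39 (Gstm2) to 0.02 (Gstm1). Its summed level was 100.3 and 94.5 CPM in the controls and 94.2 and 90.5 CPM in the libraries labelled KO 1 and KO 2. The pi cluster on chromosome 19, from 4035407 to 4059569, had 3 tested genes, Gstp1, Gstp2 and Gstp3, with log2 fold changes of 0.32, 0.40 and 0.46 (edgeR adjusted p = 0.16, 0.11 and 0.16). Its sum was 32.3 and 28.6 CPM in the controls and 38.5 and 39.9 CPM in the knockout libraries, which did not overlap. Genes within these clusters resemble each other closely, so the split of reads between them is uncertain.

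Gsta4, the transferase that detoxifies the lipid peroxidation product 4-hydroxynonenal, was the most abundant transferase. It had 306 and 302 CPM in the controls and 351 and 325 CPM in the libraries labelled KO 1 and KO 2. The knockout libraries were slightly above the controls, with a log2 fold change of 0.15 (edgeR adjusted p = 0.24). Per kb of exon its mean level was 254 CPM per kb, followed by 31.6 for Gstm1 and 24.8 for Gsto1. Gstk1, the mitochondrial and peroxisomal kappa enzyme, had 3.38 and 2.54 CPM in the controls and 4.24 and 4.29 CPM in the knockout libraries, with a log2 fold change of 0.53 that did not pass (edgeR adjusted p = 0.14). Gsto1 (0.24), Gsto2 (0.12) and Gsta3 (0.11) did not pass either.

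No peroxiredoxin or sulfiredoxin gene passed the test, and all 7 had log2 fold changes between -0.21 and 0.23. Prdx1, the most abundant, had 583 and 593 CPM in the controls and 610 and 561 CPM in the libraries labelled KO 1 and KO 2. The controls fell between the knockout libraries, and the log2 fold change was -0.01 (edgeR adjusted p = 0.97). Prdx6, which also has phospholipase activity, was at 269 and 270 CPM in the controls and 274 and 264 CPM in the knockout libraries. Its log2 fold change of -0.003, like that of Prdx1, was above 0 with the RLE and upper-quartile scalings. The cytosolic Prdx2 (0.20) and the mitochondrial and peroxisomal Prdx5 (0.23) were above both controls in both knockout libraries, and the mitochondrial Prdx3 (-0.21) and the endoplasmic reticulum enzyme Prdx4 (-0.07) below them. Srxn1, the sulfiredoxin that repairs over-oxidised peroxiredoxins, had 0.08. Per kb of exon, mean levels were 193 CPM per kb for Prdx1, 56.0 for Prdx6, 38.4 for Prdx2, 29.8 for Prdx3, 28.6 for Prdx4, 20.5 for Prdx5 and 9.24 for Srxn1.

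None of the 5 thioredoxin system genes passed. Txnrd1, the cytosolic reductase and the most abundant by CPM, had 577 and 553 CPM in the controls and 606 and 571 CPM in the libraries labelled KO 1 and KO 2. These values interleave, with a log2 fold change of 0.06 (edgeR adjusted p = 0.65). Its substrate gene Txn1 had 302 and 306 CPM in the controls and 277 and 312 CPM in the knockout libraries, with a log2 fold change of -0.05 (edgeR adjusted p = 0.75) that was 0.01 with the GC-content offset. The mitochondrial pair Txn2 (0.16) and Txnrd2 (0.36) and the testis-enriched Txnrd3 (0.32) were above both controls in both knockout libraries. Per kb of exon, Txn1 stood at a mean of 285 CPM per kb, Txnrd1 at 81.4, Txn2 at 34.2, Txnrd3 at 7.18 and Txnrd2 at 1.44.

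Superoxide dismutases turn superoxide into hydrogen peroxide, which catalase breaks down. Sod1, the cytosolic enzyme, had 463 and 437 CPM in the controls and 414 and 492 CPM in the libraries labelled KO 1 and KO 2. The knockout libraries lay on either side of the controls, with a log2 fold change of 0.01 (edgeR adjusted p = 0.96). Sod2, the mitochondrial enzyme, had 202 and 198 CPM in the controls and 251 and 218 CPM in the knockout libraries. Both were above the controls, and the log2 fold change of 0.23 did not pass (edgeR adjusted p = 0.15). With the GC-content offset it was 0.43 and passed (edgeR adjusted p = 0.014). Cat had 128 and 135 CPM in the controls and 113 and 114 CPM in the knockout libraries, a log2 fold change of -0.21 that did not pass (edgeR adjusted p = 0.12). The signs of these log2 fold changes thus differed.

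The other 5 members were too low to test. Gsta1 had 0 counts in every library, which allows up to 0.080 to 0.11 CPM (3 counts, counting error only). Gpx5, a peroxidase of the epididymis, had 1 count in all, in control replicate 2, and the secreted dismutase gene Sod3 had 0 to 2 counts per library. Gsta2 had 6 and 4 control counts, with 1 in the library labelled KO 1 and 0 in that labelled KO 2.

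Another 96 genes of the same pathways, listed by function, put the members in context. Of 89 tested, 2 were called higher and 10 lower, 13.5% in all, against 14.3% of all genes tested (5.76% higher and 8.57% lower), with a median log2 fold change of 0.0083. Among partners of NRF2, 3 of 12 fell: Maff, a small MAF protein that pairs with NRF2 on DNA (-0.78, edgeR adjusted p = 0.0092), and Nfe2l1, a relative of NRF2 (-0.60), and Sqstm1, which binds KEAP1 (-0.63), both of the latter on chromosome 11. Maff had 73.3 and 69.5 CPM in the controls and 41.5 and 41.8 CPM in the libraries labelled KO 1 and KO 2. Of 16 tested genes of cystine import and glutathione turnover, 2 fell, the glutathione-degrading Chac2 on chromosome 11 (-0.92) and Abcc2, an exporter of glutathione conjugates (-1.55, edgeR adjusted p = 0.021). Abcc2 had 13.1 and 10.6 CPM in the controls and 5.19 and 2.87 CPM in the knockout libraries. Of 12 tested NADPH genes, Pgls of the pentose phosphate pathway (0.59) and Aldh1l2 of mitochondrial folate metabolism (0.73) rose and Me1, the cytosolic malic enzyme (-0.83), fell.

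Of 23 tested thiol reductase and thioredoxin-related genes, 3 fell. Txndc17 (-0.78) and the nucleoredoxin gene Nxn (-0.59) both lie on chromosome 11. The other was the selenoprotein gene Selenot (-0.55), named after its value was seen, as was Sqstm1. Ugdh, which supplies the substrate of glucuronidation, was the only call among 19 quinone, carbonyl, haem and iron genes (-0.38, edgeR adjusted p = 0.046). None of 7 other transferase genes was called. Lancl1, the most abundant of these, had 52.9 and 53.1 CPM in the controls and 61.7 and 54.8 CPM in the libraries labelled KO 1 and KO 2. The calls of Chac2, Pgls, Aldh1l2, Nxn, Ugdh and Selenot were lost when control replicate 1 was left out (edgeR adjusted p = 0.13, 0.15, 0.13, 0.077, 0.43 and 0.053), and those of Pgls, Aldh1l2, Nxn, Ugdh and Selenot without control replicate 2 (edgeR adjusted p = 0.076, 0.32, 0.10, 0.38 and 0.11). Chac2, Ugdh and Selenot also lost theirs after the GC-content offset, where their log2 fold changes were -0.57, -0.20 and -0.25 (edgeR adjusted p = 0.055, 0.24 and 0.064).

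Base composition moved with the fold changes. All tested genes in the quintile of lowest transcript GC content had a median log2 fold change of -0.22, and those in the highest 0.23. The 4 members in the lowest quintile had a median of 0.05 and the 7 in the highest 0.32. Among the called genes, transcript GC content ran from 48.2% for Gss to 60.2% for Gpx4. After that offset Hmox1, Gpx3, Gss and Gstt2 were called, Gpx4, Gpx7 and Gstt1 were not, and Gclc (0.27) and Sod2 (0.43) were called higher.

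**Figure D4:**
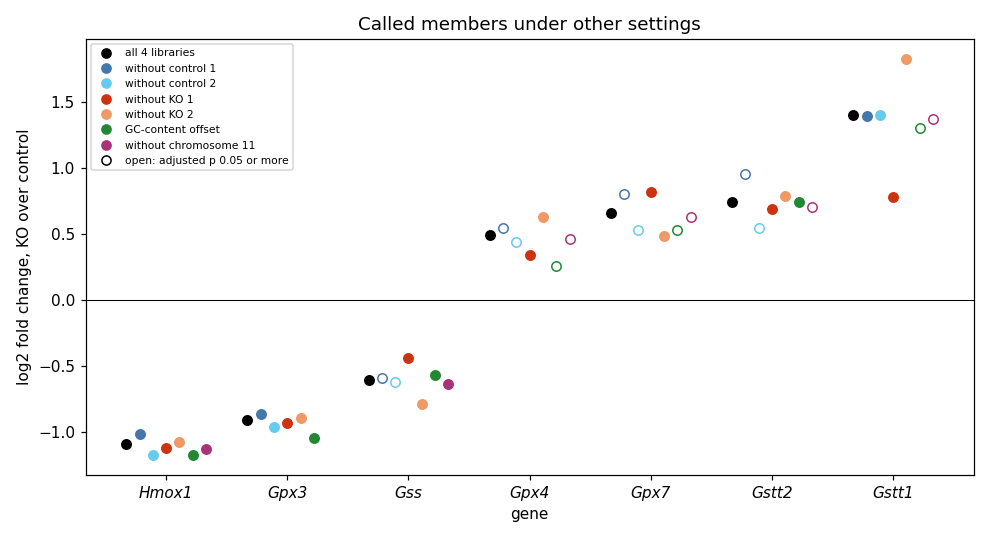
Log2 fold change, knockout over control (y axis), of the 7 called members (x axis) with all 4 libraries, without each library in turn, with the GC-content offset and without the genes of chromosome 11. Filled points have an adjusted p under 0.05 and open points do not, and the points of Hmox1 and Gpx3 are all filled.

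In the authors' deposited table of their own comparison, 48 members had an adjusted p, and 4 were higher and 3 lower at a threshold of 0.05, against 17% of all genes with an adjusted p in that table. These were the 7 members called here, each in the same direction. The authors' deposited table gave log2 fold changes of -1.04 for Hmox1, -0.86 for Gpx3, -0.55 for Gss, 0.47 for Gpx4, 0.59 for Gpx7, 0.65 for Gstt2 and 1.07 for Gstt1. It was made from the same libraries and is no independent measurement.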

How the data were processed

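Messenger RNA was measured in 2 control and 2 KAT6A knockout libraries, grouped and numbered by their titles. Per the labels' protocols, libraries were made with a TruSeq Stranded mRNA kit. Each library's deposited table gives whole-number read counts by gene symbol. featureCounts and DESeq2 appear in the submitters' processing notes. The sources used here do not give aligner, build, annotation or strand setting. The authors also deposited normalized counts, a signal equal to the counts divided by 1 factor per library, which was not used for tests, and a table without a header, whose columns were identified from their values: mean signal, log2 fold change, standard error, Wald score, p-value and adjusted p-value.

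Tests used edgeR 4.0.16 in R 4.3.3: filterByExpr by group (16112 of 41543 genes kept), TMM scaling (factors 0.992 to 1.01), the robust quasi-likelihood test with group as the only term, and Benjamini-Hochberg adjustment with a threshold of 0.05. Each standard error is the size of the log2 fold change over the root of its F statistic. The common biological coefficient of variation was 0.112, and the libraries held 27494041 to 37354623 counts. Positions and exon lengths came from GENCODE M21 (GRCm38), which held 97.3% of the symbols. The GC content of transcripts was found for 98.6% of tested genes and all 48 tested members. The procedure was tested on simulated data. There it recovered 20.5% of log2 changes of 0.5 in size, 76.3% of those of 1 and 96.6% of those of 2. Small changes were thus mostly missed. The simulation gave 123 calls, 6 of them false, against 2309 calls in the data, so these shares need not hold for the members.

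The 16 alternatives were RLE, upper-quartile or no composition scaling, all genes kept or those with at least 1 CPM in 2 libraries, limma-voom (limma 3.58.1), DESeq2 1.42.0, the likelihood ratio test, a block for replicate number, an offset for GC content (lowess, span 0.3), the offset with the block, a fit without chromosome 11, and each library left out, the lone library then being given the other group's spread. Members, lists and settings were chosen with earlier results of these data known. All members could be named. Values in every library were due for called members and the most abundant member of each role. Outside that rule they were also given for Keap1, Nqo1, Gclc, Gpx8, Gpx2, Gpx6, Gstk1, Prdx6, Txn1, Sod2 and Cat. Each context list gave up to 2 called genes per direction, or its most abundant gene. Python 3.11.15 with pandas 2.3.3 and matplotlib 3.10.9 made tables and plots.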

Additional observations from a re-analysis of the deposited data

How the results depend on the processing

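With 2 libraries per group the counts of calls depended on single libraries. Leaving out each library in turn gave 254 to 4020 genes higher and 648 to 4400 lower among all genes, 1 to 16 members higher and 2 to 11 lower, and 0 to 28 context genes higher and 6 to 25 lower. The likelihood ratio test called 1666 genes higher and 2175 lower. Without chromosome 11 the counts over all genes were 519 (3.51%) and 697 (4.71%), with 0 of 47 members higher, 1 context gene higher and 5 lower. A minimum of 1 CPM left 2 members higher (4.17%), against 6.36% of all genes tested with it. Context genes called higher numbered 4 with DESeq2 or limma-voom. They numbered 5 with the likelihood ratio test, upper-quartile scaling, the GC-content offset, or that offset with the replicate block. In these settings 5.22% (GC-content offset) to 10.3% (likelihood ratio test) of all genes tested were higher. Except where leaving out libraries or chromosome 11 itself changed what was fitted, the cause was not tested.

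With the replicate number as a block, 1613 genes were higher and 2147 lower, 5 context genes were higher, Gpx8 was called lower (edgeR adjusted p = 0.042), and the median log2 fold change of the members was 0.020. The deviations of same-numbered libraries correlated at 0.0945, and no label pairs them. The members' median was 0.069 with the GC-content offset, 0.074 with upper-quartile scaling, 0.0192 with limma-voom and with no low-count filter, and 0.0077 to 0.057 with a library left out.

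The log2 fold changes of 16 members changed sign in some setting, and none of these was called with all 4 libraries. The largest in size among them was that of Gpx2 (-0.57), which was above 0 only without the library labelled KO 1. Over the libraries left out, the ranges were -0.18 to 0.10 for Gpx1, -1.55 to 0.013 for Gpx2, -0.60 to 0.53 for Gpx6, -0.055 to 0.088 for Gsr, -0.10 to 0.29 for Gsta3, -0.047 to 0.085 for Gstm1, -0.030 to 0.012 for Gstm4, -0.27 to 0.19 for Gstm6, -0.34 to 0.088 for Gstm7, -0.27 to 0.48 for Gsto2, -0.21 to 0.051 for Gstt3, -0.067 to 0.050 for Prdx1, -0.030 to 0.019 for Prdx6, -0.12 to 0.13 for Sod1, -0.14 to 0.037 for Txn1, -0.74 to 0.75 for Kat6a and -0.20 to 0.054 for Nanog. With the GC-content offset, and with it and the replicate block, the values were 0.073 and 0.070 for Gclm, -0.065 and -0.064 for Gstm1, 0.19 and 0.19 for Prdx1, 0.016 and 0.016 for Prdx6, 0.010 and 0.0063 for Txn1 and 0.025 and 0.022 for Nanog. Upper-quartile scaling gave 0.00096 for Gpx1, 0.026 for Gstm4, 0.014 for Gstm6, 0.028 for Prdx1 and 0.030 for Prdx6. Without composition scaling, Gstm4 had 0.0066, Prdx1 0.0087 and Prdx6 0.011. RLE and DESeq2 each gave 0.0013 for Prdx1 and 0.0035 for Prdx6. A minimum of 1 CPM gave 0.0010 for Prdx6, and limma-voom -0.0042 for Gpx6. Without chromosome 11, Gsr had -0.012, Gstm1 -0.010 and Sod1 -0.023, and with no low-count filter Gsr had -0.0014 and Sod1 -0.011.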
